A study of Mus musculus with 160 samples.

Results

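Genes that differed between *Gata3*-GFP+ and *Gata3*-GFP- cells in the same direction in endothelial (ECs), hematopoietic (HCs), mesenchymal (MCs) and sympathetic nervous system (SNS) cells were collected from RNA-seq of the aorta-gonad-mesonephros (AGM) region. They had to be measured in each of the 4 cell types (at least 10 counts in at least 5 of its pools), to have a GFP difference of the same sign in all 4, and to be called at a log2 fold change of over 0.1 in size with adjusted p under 0.01 in an edgeR quasi-likelihood fit of GFP with cell type as a block. Of 46078 genes in the table, 19859 were tested and 13077 were measured in all 4 cell types. Of these, 2808 had the same sign throughout and 2019 also passed the blocked fit. The 2019 shared genes comprise 1050 that were higher and 969 that were lower in *Gata3*-GFP+ pools. Since they were chosen by their GFP contrasts in these same pools, their GFP differences are given below as a description and carry no test.

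Each library was a pool of 20 sorted cells, with 20 pools for each of 8 populations, and every embryo had the genotype Gata3-GFP +/-, a heterozygous GFP reporter knocked into the *Gata3* locus. The ECs and HCs, GFP+ and GFP- alike, came from E10.5 embryos, sorted as *Cdh5*-expressing CD41- CD45- cells and as CD41+ or CD45+ cells. Both populations of MCs and of SNS cells came from E11.5 embryos, sorted on PDGFRB and on NGFR, so that stage and cell type cannot be told apart between these pairs. Since a heterozygous reporter is carried by GFP+ and GFP- cells alike, the comparison is between cells that differ in *Gata3* locus activity and not between genotypes. Pools were made from cells of several embryos and are not tied to embryos or sorts by their labels, so p-values measure only the spread between pools, which may be partly technical.

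GATA3 is a zinc finger transcription factor that binds GATA letters in DNA and works with FOG cofactors and with bridging proteins of the LMO and LDB1 type. It is required for the development of sympathetic neurons and T cells, and in the AGM it is found in part of the aortic endothelium, in the mesenchyme beneath it and in the sympathetic ganglia, around the time at which ECs turn into HCs and the first hematopoietic stem cells appear.

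A total of 141 pools were used, with 19 and 20 GFP+ and GFP- pools of ECs, 20 and 20 of HCs, 17 and 14 of MCs and 15 and 16 of SNS cells, and with between 1400824 and 16004756 counts on genes per pool. Sorting markers followed the labels in these pools. For *Pdgfrb* and *Ngfr* in MCs and SNS cells this was fixed by the rule, which left out pools with the other marker higher. The median level of *Cdh5*, the VE-cadherin gene, was 990 and 429 CPM (read counts of a gene scaled to a common library size) in GFP+ and GFP- ECs and at most 9.46 CPM in any other population, again by the median. *Ptprc*, which encodes CD45, had medians of 208 (4.5 to 357) and 431 (292 to 649) CPM in GFP+ and GFP- HCs. *Itga2b*, which encodes CD41, had medians of 232 (9.5 to 1372) and 8.64 (0.592 to 136) CPM there. GFP+ and GFP- HCs thus differed in the markers by which they were sorted. *Pdgfrb* had medians of 252 and 172 CPM in MCs, and *Ngfr* of 97.5 and 263 CPM in SNS cells. Of the pools left out, 7 failed limits on depth or spike-in share. The other 12, with 3 in each MC and SNS population, carried the marker of the other cell type. The 3 pools labelled *Gata3*-GFP- MCs had 129 to 413 CPM of *Gata3* and 30.2 to 116 CPM of *Ngfr*, and the 3 labelled *Gata3*-GFP+ SNS had 10.3 to 23.5 CPM of *Gata3* and 113 to 135 CPM of *Pdgfrb*. The 3 labelled *Gata3*-GFP+ MCs had 16.6 to 84.7 CPM of *Gata3* and the 3 labelled *Gata3*-GFP- SNS 44.6 to 50.5 CPM. Both overlap the range of the used pools with the same labels. Set by marker, the former lay within the range of the used GFP- SNS pools and below every used GFP+ SNS pool. The latter lay within the range of the used GFP+ MC pools and above every used GFP- MC pool. With these 12 pools kept under their labels, the rule gave 654 higher and 648 lower genes, of which 591 and 606 were among the 1050 and 969.

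The shared genes differed most in the E10.5 populations. The 1050 higher genes had a median log2 fold change of 0.79 in ECs, 0.74 in HCs, 0.40 in MCs and 0.28 in SNS cells, and 0.64 with cell type as block. The 969 lower genes had medians of -0.63, -0.32, -0.23 and -0.16 in the same order, and -0.36 with the block. Across all 13077 measured genes the medians were 0.07, 0.04, 0.02 and -0.01. Large differences in every cell type were few, since 30 higher genes and 1 lower gene lay beyond 1 on the log2 scale in all 4, and 126 and 14 lay beyond 0.5. The largest of the 4 differences was in ECs for 469 and in HCs for 452 of the higher genes, and in ECs for 722 of the lower genes. The smallest was in SNS cells for 489 higher and 441 lower genes.

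Each cell type on its own called a different share of the shared genes. In ECs 634 of the higher genes were called higher, where 20.0% of all measured genes were, and 764 of the lower genes were called lower, where 20.5% were. In HCs 567 were called higher and 387 lower, against 19.5% and 10.3% of measured genes. In MCs the counts were 135 and 144, against 3.71% and 3.87%, and in SNS cells 66 and 52, against 1.58% and 3.27%. These counts follow from the rule, which used the same contrasts. The blocked fit called 17.8% of all tested genes higher and 12.6% lower, and 18.9% and 16.5% of the measured genes. Between the cell types, 137 higher and 119 lower genes were called in none, and 11 higher and 3 lower genes in each of the 4.

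Of the 16 possible sign patterns, the one with all 4 signs positive held 1533 genes, and the one with SNS cells alone negative held 1483. The pattern with all signs negative held 1275 genes, and the one with SNS cells alone positive held 1171. Across the 13077 genes, which share libraries within a cell type and are no independent replicates, Pearson's r of the GFP differences was 0.304 for ECs and HCs, 0.325 for ECs and MCs, and 0.126 for HCs and MCs. With SNS cells it was -0.11 for ECs, -0.0803 for HCs and 0.0476 for MCs.

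*Gata3* itself (chr2:9857078-9890034, minus strand, GRCm38) follows the sort and checks the labels. In ECs its lowest, median and highest levels were 28.2, 77.2 and 169 CPM in GFP+ pools and 4.34, 10.51 and 29.8 CPM in GFP- pools. In HCs they were 12.6, 44.4 and 150 CPM against 1.79, 7.11 and 12.9 CPM. MCs had 20.3, 36.4 and 72.1 CPM in GFP+ pools, against a lowest of 2.52 and a median of 8.88 CPM in GFP- pools, all of which were below 20.3 CPM. GFP+ pools lay above every GFP- pool in MCs and SNS cells, and 18 of 19 and 19 of 20 did so in ECs and HCs. SNS cells had the highest levels, 110, 189 and 307 CPM against 11.1, 39.2 and 93.9 CPM, so that GFP- SNS pools carried about as much *Gata3* as GFP+ MC pools. The log2 fold changes were 2.67 ± 0.23, 2.87 ± 0.23, 1.92 ± 0.26 and 2.10 ± 0.24 (SE) in ECs, HCs, MCs and SNS cells.

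**Figure D1:**
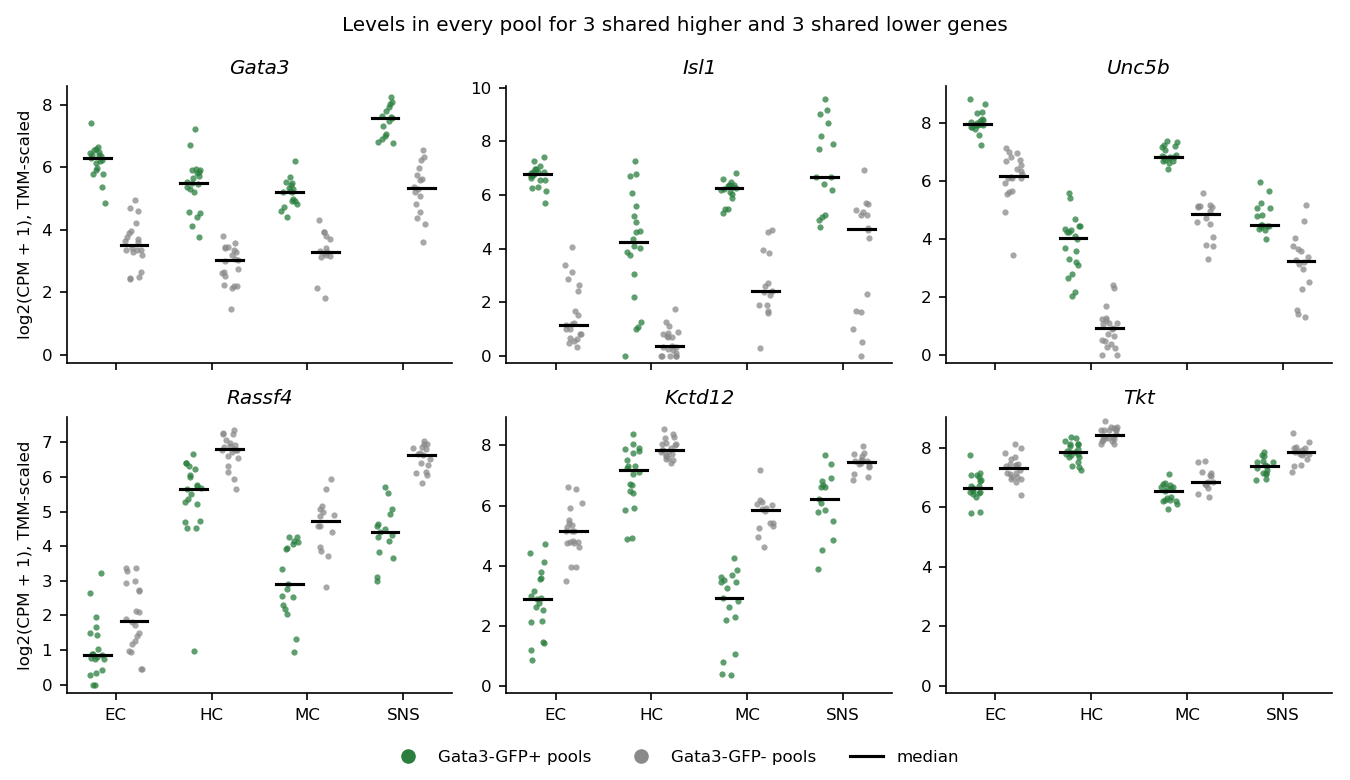
Level of 6 shared genes in every pool, as log2(CPM + 1) after TMM scaling, for GFP+ (green) and GFP- (grey) pools of ECs, HCs, MCs and SNS cells, with a black line at each median. GFP+ pools sit above GFP- pools for *Gata3*, *Isl1* and *Unc5b* and below them for *Rassf4*, *Kctd12* and *Tkt*, with overlap in part of the panels.

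Of the 8 other genes for GATA factors and their partners that were measured in all cell types, 3 were shared, all higher. Among all measured genes 8.03% were shared higher. In SNS cells alone 2 genes of this list, with *Gata3* counted, were called higher and 2 lower, against 1.58% and 3.27% of all measured genes. *Zfpm1*, the FOG1 cofactor of GATA factors, had log2 fold changes of 0.98 in ECs, 1.84 in HCs, 2.99 in MCs and 1.07 in SNS cells. Its median was 21.9 against 12.3 CPM in ECs, 20.5 against 4.07 CPM in HCs, 7.05 against 0.533 CPM in MCs and 9.14 against 4.24 CPM in SNS cells. *Lmo1*, a LIM-only bridging protein, had differences of 3.29, 2.05, 0.97 and 2.03, and *Ldb1*, the LIM domain-binding protein of the same complexes, of 0.69, 0.21, 0.35 and 0.003. The SNS difference of *Ldb1* had a standard error of 0.14, so its sign there is not settled. *Gata2* and *Gata6* were not shared, with *Gata6* at 3.76, 5.54 and 2.39 in ECs, HCs and MCs and -5.22 in SNS cells. None of the 6 measured genes beside *Gata3* on chromosome 2 was shared, where 8.03% of all measured genes were shared higher and 7.41% lower.

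Ranked by the smallest of the 4 differences, the first gene was *Isl1* (chr13:116298281-116309689, minus strand), which encodes a LIM-homeodomain factor of sympathetic and motor neurons and of cardiac progenitors. In ECs it had a lowest, median and highest level of 50.5, 109 and 171 CPM in GFP+ pools and 0.258, 1.245 and 15.6 CPM in GFP- pools. In MCs the levels were 38.7, 76.1 and 111 CPM against 0.240, 4.29 and 24.8 CPM. GFP+ and GFP- pools did not overlap in ECs or MCs. HCs were more uneven, with 0, 17.9 and 151 CPM in GFP+ pools against 0, 0.279 and 2.36 CPM, and 16 of 20 GFP+ pools above every GFP- pool. In SNS cells 7 of 15 GFP+ pools lay above every GFP- pool, with 27.0, 101 and 767 CPM against 0, 25.7 and 121 CPM. The log2 fold changes were 5.07 ± 0.51, 6.25 ± 0.61, 3.20 ± 0.52 and 3.03 ± 0.48 (SE) in ECs, HCs, MCs and SNS cells.

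*Unc5b*, a netrin receptor that guides axons and vessel sprouts, was also among the first higher genes. Its median was 248 against 72.1 CPM in ECs, with GFP+ pools from 152 to 455 and GFP- pools from 9.88 to 139 CPM. In HCs it was 15.6 (3.17 to 47.5) against 0.903 (0 to 4.32) CPM and in MCs 113 (83.5 to 167) against 28.0 (9.05 to 47.1) CPM. GFP+ pools did not overlap GFP- pools in ECs and MCs, and 18 of 20 lay above all GFP- pools in HCs. In SNS cells, with 21.5 (15.1 to 61.9) against 8.59 (1.49 to 35.2) CPM, 3 of 15 did. *Parm1*, which encodes a mucin-like membrane protein, had a median of 763 against 216 CPM in MCs and 179 against 52.4 CPM in SNS cells, but only 4.62 against 0.267 CPM in ECs and 25.4 against 1.80 CPM in HCs.

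Several of the first higher genes are known from neurons. *Epha5*, an ephrin receptor, had log2 fold changes of 3.25, 3.77, 2.78 and 1.98 in ECs, HCs, MCs and SNS cells, *Elavl2*, a neuronal RNA-binding protein, of 1.55, 4.39, 2.15 and 1.82, and *Stmn2*, which binds tubulin in growing neurites, of 3.05, 5.15, 1.53 and 3.31. *Rprm*, a mediator of cell cycle arrest downstream of p53, and *Tnnc1*, the troponin C of heart and slow muscle, were low, with medians of at most 8.44 and 4.38 CPM in any population, and many pools were at 0. The remaining first higher genes were *Mtmr7*, a myotubularin-related phosphatase, *Pdlim3*, a LIM protein of the actin cytoskeleton, and *Klhdc8b*, a kelch repeat protein. Over the first 12 the differences ran from 1.55 to 5.07 in ECs, 1.53 to 6.25 in HCs, 1.40 to 3.64 in MCs and 1.43 to 3.31 in SNS cells. Scaling by the ERCC spike-in RNAs kept all 12 higher in each cell type. The ranking largely fixed this, since their EC differences began at 1.55. The EC median of all measured genes moved from 0.07 to -0.64 under that scaling.

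**Figure D2:**
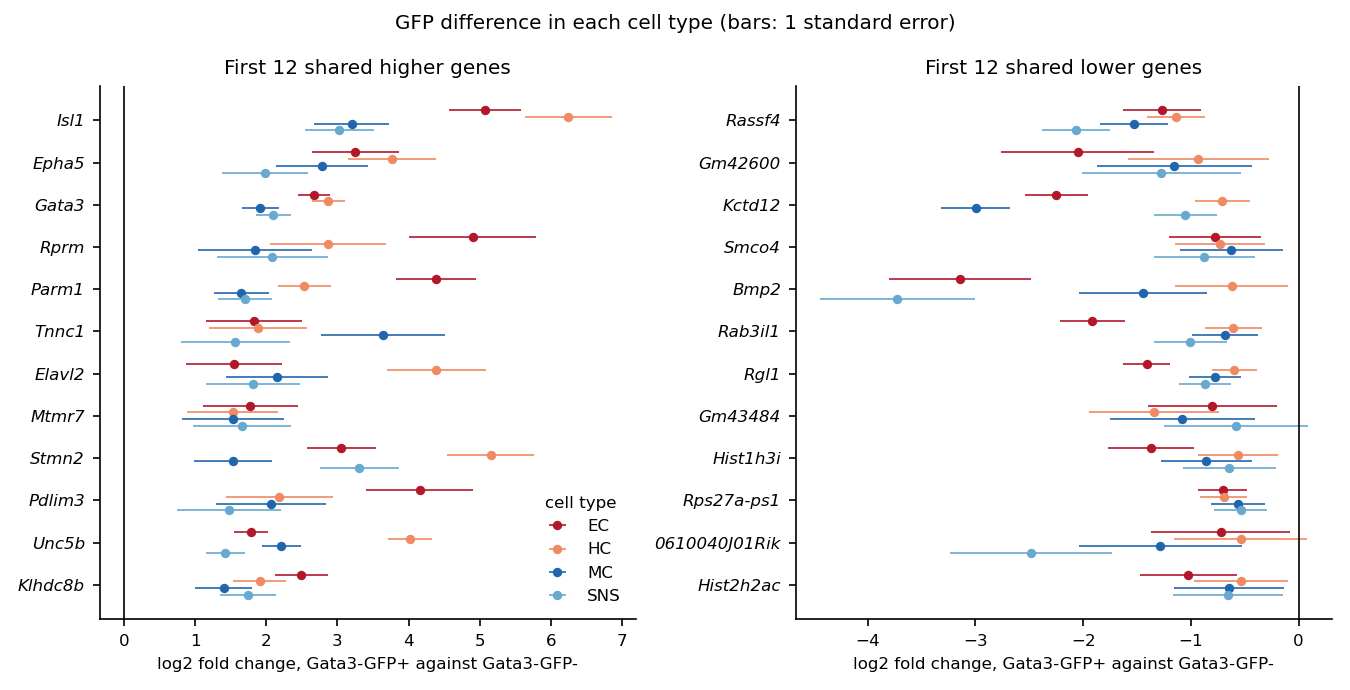
Log2 fold change between GFP+ and GFP- pools in ECs, HCs, MCs and SNS cells for the first 12 higher (left) and the first 12 lower (right) shared genes, ranked by the smallest difference over the 4 cell types, with bars of 1 standard error. Higher genes lie between 1.40 and 6.25, whereas most differences of the lower genes lie between 0 and -2.

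The 11 higher genes that were called in each of the 4 cell types included *Gata3*, *Isl1*, *Unc5b*, *Parm1*, *Klhdc8b*, *Crip1*, *Aplp2*, *Cux2*, *Id1* and *Tanc2*. *Id1*, a target of BMP signaling and inhibitor of bHLH factors, had medians of 227 against 75.8, 53.1 against 35.6, 279 against 168 and 483 against 223 CPM in ECs, HCs, MCs and SNS cells. *Aplp2*, of the amyloid precursor family, had near-even differences of 0.81, 0.73, 0.58 and 0.48 on the log2 scale. *Cux2*, a homeodomain factor of neurons and other tissues, had 1.16, 2.51, 1.95 and 1.71.

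Genes of sympathetic cells moved with the GFP label outside the SNS populations. The summed level of the 12 sympathetic markers had a median of 387 (262 to 813) CPM in GFP+ and 49.0 (15.9 to 159) CPM in GFP- ECs, 169 (8.50 to 2637) and 14.2 (2.58 to 31.6) CPM in HCs, 85.7 (45.4 to 150) and 40.4 (21.1 to 124) CPM in MCs, and 2044 (1195 to 5036) and 635 (282 to 1178) CPM in SNS cells. In GFP+ ECs nearly all of it was *Stmn2*, at 365 CPM, while *Phox2a*, *Insm1*, *Th* and *Chga* each had a median of 0. A mean over 1 CPM was seen for 5 of the 12 markers in GFP+ and 4 in GFP- ECs, for 12 and 5 in HCs and for 7 and 8 in MCs. *Dbh* had medians of 1.07 against 0.355 CPM and *Elavl4* of 3.07 against 1.59 CPM in GFP+ and GFP- ECs, and single GFP+ EC pools reached 93.3 CPM of *Tubb3* and 26.3 CPM of *Elavl4*. In MCs *Stmn2* had 42.5 against 7.16 CPM, *Hand2* 9.25 against 2.21 CPM and *Ddc* 11.01 against 4.96 CPM, but *Tubb3* 3.93 against 10.4 CPM. The highest GFP+ EC pool had 0.320, 0.437, 1.07 and 0.640 CPM of *Phox2a*, *Insm1*, *Th* and *Chga* and the highest GFP+ MC pool 1.99, 2.92, 13.4 and 2.43 CPM, against medians of 15.02, 95.95, 75.03 and 17.03 CPM in GFP+ SNS pools. *Isl1* in GFP+ ECs and MCs was near its level in GFP+ SNS pools. In single GFP+ HC pools *Phox2a*, *Insm1*, *Th* and *Chga* reached 58.6, 25.7, 418 and 51.4 CPM, with medians from 0 to 1.63 CPM. In bulk pools of cells, few cells with much of an RNA and many cells with little of it cannot be told apart.

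Markers of further cell types moved with the label as well. The 11 mesenchymal markers summed to medians of 93.6 (25.9 to 1642) against 16.4 (3.87 to 72.6) CPM in GFP+ and GFP- ECs, 410 (20.6 to 1121) against 44.8 (3.75 to 171) CPM in HCs and 528 (148 to 861) against 1321 (917 to 1972) CPM in SNS cells. The 10 hematopoietic markers summed to 4483 (2759 to 8141) against 7253 (6110 to 8868) CPM in HCs, and the tested nephric duct markers to 90.6 (58.1 to 204) against 5.47 (1.22 to 11.9) CPM in ECs and 70.5 (2.64 to 371) against 8.90 (0.888 to 26.3) CPM in HCs. No shared gene was among the endothelial, mesenchymal, hematopoietic or nephric duct markers, of which 3, 8, 2 and 4 were measured in all cell types. Of 4 sympathetic markers measured in all cell types 2 were shared higher, *Stmn2* and *Dbh*. Among all measured genes 8.03% were shared higher and 7.41% lower, and counts from lists this short carry no test. When the summed sympathetic level of ECs, HCs and MCs was added to the blocked fit as a covariate, an alternative chosen after seeing the data, 298 of the 1050 higher and 284 of the 969 lower genes were still called, while 1048 and 969 kept their sign, with median blocked log2 fold changes of 0.46 and -0.24. The blocked log2 fold change then was 2.07 for *Gata3*, 3.44 for *Isl1*, 1.97 for *Unc5b* and -1.74 for *Rassf4*. Of the first 12 higher genes *Mtmr7* and *Pdlim3* lost the call, at 1.61 and 1.43 (adjusted p = 0.0225 and 0.0462, edgeR). SNS pools had no covariate in this fit. In ECs the summed level did not overlap between GFP+ (262 to 813 CPM) and GFP- pools (15.9 to 159 CPM), so there it stands in for the GFP label. The kept signs and the lost calls therefore do not measure the part of sympathetic RNA. The part of the other cell types' RNA in the remaining differences was not tested.

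The lower genes had smaller differences. The first was *Rassf4* (chr6:116633008-116673952, minus strand), a Ras association domain protein, with medians of 49.7 (0.970 to 101) against 111 (49.7 to 164) CPM in GFP+ and GFP- HCs and 20.5 (6.93 to 51.1) against 99.3 (56.0 to 131) CPM in SNS cells. In SNS cells no GFP+ pool overlapped a GFP- pool. MCs had 6.54 (0.912 to 18.3) against 25.4 (6.06 to 60.4) CPM, and ECs had little of it, 0.804 (0 to 8.32) against 2.59 (0.379 to 9.29) CPM. *Kctd12*, an auxiliary subunit of GABA-B receptors, had 6.41 against 34.6 CPM in ECs, 145 against 231 in HCs, 6.56 against 56.8 in MCs and 74.0 against 173 in SNS cells. Its pools did not overlap in MCs, with the GFP+ pools from 0.286 to 17.9 CPM and the GFP- pools from 23.8 to 143 CPM.

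Also among the first lower genes was *Bmp2*, a BMP ligand made by endothelium and mesenchyme in many tissues, with log2 fold changes of -3.14, -0.62, -1.45 and -3.72 in ECs, HCs, MCs and SNS cells. It was at a median of 0 in GFP+ ECs, with 12 of 19 pools at 0, and of 18.7 CPM in GFP- MCs. *Rab3il1* and *Rgl1*, exchange factors for Rab and Ral GTPases, had blocked log2 fold changes of -1.04 ± 0.16 and -0.92 ± 0.12 (SE). *Rgl1* had medians of 24.5 against 68.5, 44.99 against 68.8, 30.7 against 45.4 and 21.5 against 45.03 CPM in ECs, HCs, MCs and SNS cells. *Hist1h3i*, *Hist2h2ac* and *Rps27a-ps1* have near-identical copies among which reads could be split, so their counts are uncertain. The 3 lower genes called in each of the 4 cell types were *Tkt*, the transketolase of the pentose phosphate pathway, *Cdv3* and *Rassf4*. *Tkt* had medians of 99.4 against 160, 231 against 344, 92.4 against 114 and 169 against 230 CPM, with overlap in every cell type. The first 12 lower genes stayed lower in each cell type under ERCC scaling, which *Tkt* did not. Their ranking largely fixed this, since their SNS differences were -0.54 or beyond. The SNS median of all measured genes moved from -0.01 to 0.44 under that scaling.

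The shared lower genes differed in kind from the higher ones. Processed pseudogenes made up 35.1% (340) of the lower genes against 11.4% of measured genes and 1.9% of the higher genes, and 65 of the lower genes were pseudogenes of ribosomal proteins, 6.71% against 1.35% of measured genes. Replication-dependent histone genes numbered 19, or 1.96% against 0.291%. Protein-coding genes made up 94.7% of the higher genes. Reads of a pseudogene and its parent can be split between them, so that these are not independent of the ribosomal protein genes described next. In GFP- pools 62.1% of the lower genes had their highest population mean in HCs, against 32.5% of measured genes. Of the higher genes 38.5% had theirs in MCs (against 26.8%) and 31.6% in SNS cells (against 22.1%). Levels in GFP- pools enter the contrasts that chose the genes, so these shares are not independent of the rule.

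The gene lists are given by how many of their members were shared, beside 8.03% shared higher and 7.41% shared lower among all 13077 measured genes, and these shares carry no test. Of 85 cytosolic ribosomal protein genes, 44 (51.8%) were shared lower and none higher. The median log2 fold change of the list was -0.56 in ECs, -0.32 in HCs, -0.02 in MCs and -0.14 in SNS cells. On its own, ECs called 82 of the 85 lower and HCs 75 (1 higher), but MCs called 1 lower and SNS cells 1. Among all measured genes 20.5%, 10.3%, 3.87% and 3.27% were called lower. The 44 shared genes had medians of -0.08 in MCs and -0.14 in SNS cells, where the rule asked only for the sign. *Rpl12* had medians of 59.8 against 113, 87.4 against 117, 54.9 against 59.6 and 65.2 against 77.8 CPM in ECs, HCs, MCs and SNS cells. Of 75 genes of oxidative phosphorylation 33 (44.0%) were shared lower, with list medians of -0.48, -0.12, -0.10 and -0.08, and of 17 glycolytic genes 7 (41.2%) were shared lower and 1, *Hk1*, higher. *Eno1*, the glycolytic enolase, had 197 against 504 CPM in ECs and 367 against 524 CPM in SNS cells, with log2 fold changes of -1.35, -0.18, -0.21 and -0.59. Ribosome biogenesis held 5 shared lower genes of 20 (25%), *Dkc1*, *Nhp2*, *Mybbp1a*, *Ncl* and *Nop58*. *Ncl*, which encodes nucleolin, had medians of 375 against 829 CPM in ECs and 636 against 1001 CPM in HCs, but 651 against 654 CPM in SNS cells. Under ERCC scaling the list medians in SNS cells were above 0 for ribosomal proteins (0.31), oxidative phosphorylation (0.36), glycolysis (0.37) and ribosome biogenesis (0.57, already 0.09 with TMM scaling). In MCs they were 0.11, 0.02, 0.05 and -0.23 in the same order. For ribosomal proteins, oxidative phosphorylation and glycolysis the lower sign in SNS cells and MCs thus depends on the scaling. So does the lower SNS sign of the 5 shared ribosome biogenesis genes.

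The cell cycle lists split by cell type. Of 47 DNA replication genes the blocked fit called 41 lower, where 16.5% of all measured genes were. However, 5 (10.6%) were shared lower, near the 7.41% of all measured genes. The list median was -1.07, -0.45 and -0.46 in ECs, HCs and MCs and 0.35 in SNS cells. The 5 were *Gins2*, *Orc1*, *Lig1*, *Rfc1* and *Pole*, which serve the helicase, the origin recognition complex, ligation, the clamp loader and the leading strand polymerase. *Gins2* had medians of 31.2 against 94.3, 74.4 against 120, 67.9 against 97.7 and 43.9 against 58.2 CPM in ECs, HCs, MCs and SNS cells, and *Orc1* of 5.70 against 9.76, 7.94 against 16.9, 2.25 against 7.06 and 7.15 against 11.1 CPM. Of 35 mitosis genes 6 (17.1%) were shared lower, the condensin genes *Smc2* and *Smc4*, the centromere genes *Cenpa* and *Cenpe*, and *Birc5* and *Bub1* of the chromosomal passenger complex and spindle checkpoint. Their SNS differences ran from -0.17 to -0.01. Of 24 cell cycle promoters *Ccnb2* alone was shared, and under ERCC scaling neither it, nor *Orc1*, *Lig1*, *Rfc1*, *Pole* or the 6 mitosis genes kept the lower sign in all 4 cell types, which *Gins2* did.

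Cell cycle inhibitors lay on the other side. Of 12, 4 (33.3%) were shared higher, where 8.03% of all measured genes were, and none lower. These were *Rb1*, which encodes the retinoblastoma protein, *Cdkn1c*, which encodes p57Kip2, *Ccng2* and *Cdkn2d*. Within ECs, HCs, MCs and SNS cells 8, 5, 1 and 2 of the 12 were called higher. Among all measured genes 20.0%, 19.5%, 3.71% and 1.58% were. In HCs 2 of the 12 were called lower, against 10.3% of all measured genes. *Cdkn1c* had medians of 384 against 135 CPM in ECs, 211 against 11.6 CPM in HCs, 962 against 692 CPM in MCs and 4848 against 1816 CPM in SNS cells, with log2 fold changes of 1.35, 4.09, 0.45 and 1.25. GFP+ and GFP- pools were apart in SNS cells. *Rb1* had 20.6 against 9.83, 57.4 against 28.0, 12.5 against 7.13 and 9.31 against 7.89 CPM in ECs, HCs, MCs and SNS cells, and its 4 differences of 0.98, 1.19, 0.67 and 0.46 were the most even of the 4 inhibitors. *Cdkn2d* was at 0.07 in MCs and did not keep its sign under ERCC scaling.

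*Cdkn1c* is imprinted, and of 43 imprinted genes measured in all cell types 7 (16.3%) were shared higher, against 8.03% of all measured genes. The 7 were *Magel2*, *Meg3*, *Dlk1*, *Cdkn1c*, *Ppp1r9a*, *Ndn* and *Snrpn*, and *Commd1* was shared lower. *Dlk1*, a Notch family ligand of progenitors, had differences of 2.41, 3.52, 0.22 and 1.76, and *Meg3*, a long noncoding RNA of the same domain, of 1.25, 3.57, 0.46 and 1.47. The neighboring *H19* and *Igf2* were not shared, with 2.36 and 1.79 in ECs, 2.24 and 2.25 in HCs and -0.70 and -1.64 in SNS cells. Of 21 *Hox* genes 6 (28.6%) were shared higher, among them *Hoxb6*, *Hoxb7*, *Hoxb8*, *Hoxb9* and *Hoxc6*. All 21 were called higher in HCs, where 19.5% of all measured genes were. None was called higher in MCs or SNS cells, against 3.71% and 1.58% of all measured genes. Of the 6 shared genes, *Hoxb6*, *Hoxb7*, *Hoxb8* and *Hoxc6* lost the common sign under ERCC scaling.

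Signaling targets gave smaller counts. Of 8 BMP and TGF-beta targets 4 were shared higher, the targets *Id1* and *Id3* and the feedback inhibitors *Smad6* and *Bambi*, while *Bmp2* was shared lower. *Smad6* had log2 fold changes of 3.79, 2.06, 1.38 and 0.59, and *Bambi* of 0.06, 1.77, 1.45 and 0.23, the first of which changed sign under ERCC scaling. Of 10 Notch receptors, ligands and targets, *Hey1* alone was shared, with medians of 331 against 41.6, 5.21 against 1.28, 78.2 against 48.5 and 38.0 against 20.4 CPM in ECs, HCs, MCs and SNS cells. The blocked fit called 9 of these 10 genes higher, against 18.9% of all measured genes. The list median was 2.20 in ECs and -0.38 in SNS cells. *Lama2* and *Fbln2* were the shared genes of 25 collagens and matrix genes (8%, near the share among all measured genes), *Rara* of 8 genes of retinoic acid handling, and *Cdkn1c* of 9 regulators named by the study. The study compared ECs and HCs, where 9 and 6 of these regulators were called higher, against 20.0% and 19.5% of all measured genes. In MCs 2 were called higher, against 3.71% of all measured genes. In SNS cells 1 was called higher and 2 lower, against 1.58% and 3.27%. Of 19 immediate early genes that dissociation can raise, *Jund* was shared higher and *Atf3* shared lower, and no Wnt target of 5 was shared.

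**Figure D3:**
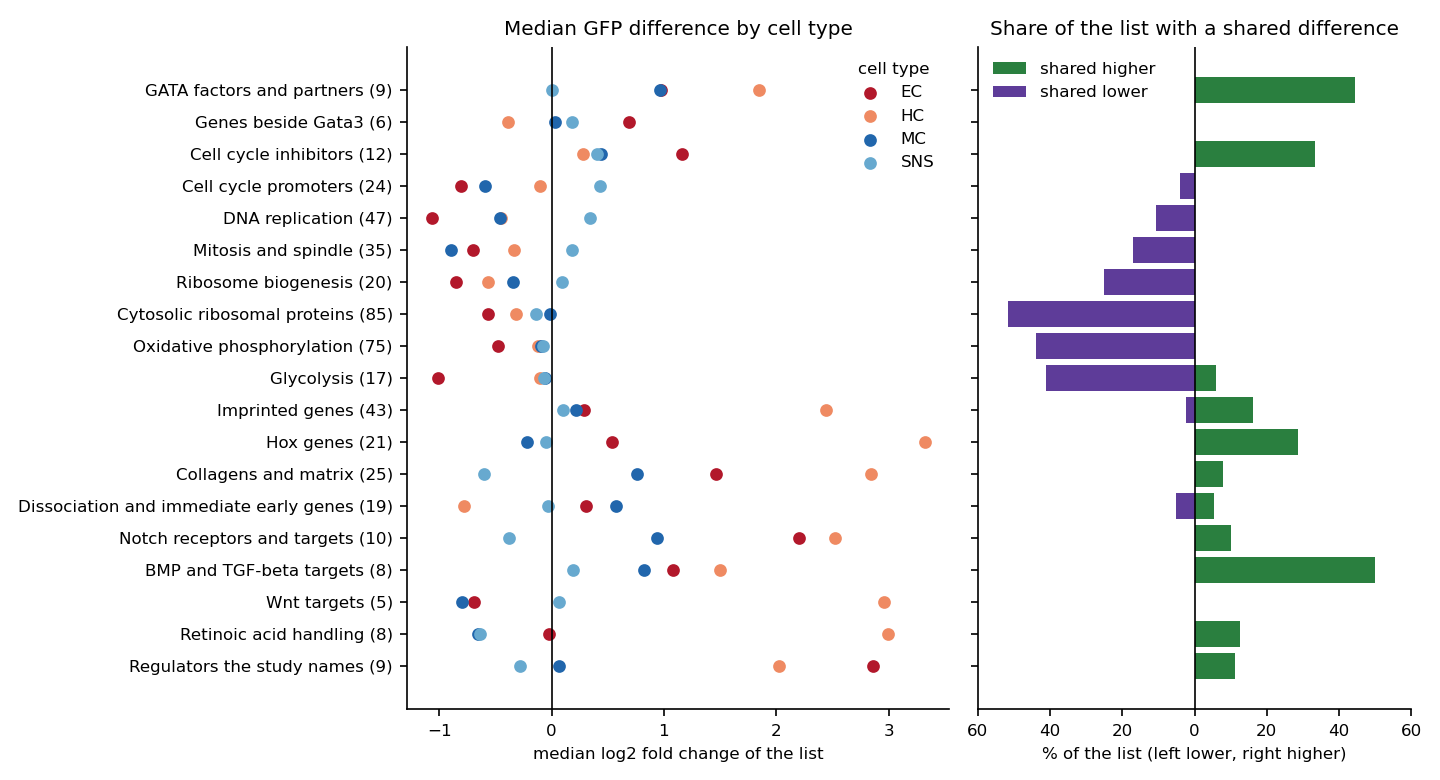
Median log2 fold change between GFP+ and GFP- pools of 19 gene lists in ECs, HCs, MCs and SNS cells (left) and the percentage of each list that was shared higher (green) or shared lower (purple) (right), with the number of genes measured in all 4 cell types in parentheses. The lists of ribosomal proteins, oxidative phosphorylation and glycolysis have the longest purple bars, and SNS medians lie near or across 0 from those of ECs for most lists.

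Whether the size of a GFP difference depended on cell type was tested with the interaction of GFP and cell type, which the rule did not use, although a common sign limits how far the 4 differences can lie apart. At an adjusted p under 0.01 (edgeR, Benjamini-Hochberg), 847 of the 2019 shared genes had a difference that depended on cell type, or 42.0%, against 43.2% of all measured genes. The counts were 421 of the higher and 426 of the lower genes. Among the first 12 higher genes *Isl1* (adjusted p = 0.000185), *Parm1* (0.00218), *Stmn2* (0.000846) and *Unc5b* (1.57e-07) passed, and *Gata3* did not (0.0255). Among the first 12 lower genes *Kctd12* (5.7e-07) and *Bmp2* (0.00264) passed. The most uneven shared genes were led by *Mif*, a cytokine, at -1.98 in ECs and -0.03 in HCs, by *Rps2*, at -1.15 in ECs and -0.04 in MCs, and by the matrix gene *Fbln2*, at 6.43 in ECs and 0.42 in MCs. Among list members, 42 of the 44 shared ribosomal protein genes, all 8 glycolytic genes and all 6 *Hox* genes passed.

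Among the genes that did not pass were *Mtmr7* (1.78, 1.53, 1.54 and 1.66 in ECs, HCs, MCs and SNS cells), *Tkt* (-0.62, -0.58, -0.46 and -0.46), *Cdv3* (-0.67, -0.50, -0.50 and -0.54) and *Aplp2*, with adjusted p of 0.994, 0.723, 0.577 and 0.226. Their 4 estimates spanned 0.25, 0.16, 0.17 and 0.33 on the log2 scale. A p that misses the threshold does not show that the differences are equal, and the standard errors of the *Mtmr7* differences were above 0.6 in each cell type.

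*Gata3* also varied among pools of the same population, and this variation was not part of the GFP contrast. A slope of each gene on log2(CPM + 1) of *Gata3*, centered within the 8 populations, was called positive for 106 and negative for 20 of the 19859 tested genes other than *Gata3*, and 2603 had an unadjusted p under 0.05. Of the shared genes 9 of the higher ones had a positive and 1 of the lower ones a negative slope, against 0.184% and 0.0841% of all measured genes. The steepest of these was *Hand2os1*, a noncoding RNA beside the sympathetic factor gene *Hand2*, at 1.82 ± 0.25 (SE) per unit of log2 *Gata3* (adjusted p = 1.28e-07, edgeR). *Dbh*, the enzyme that makes noradrenaline, had 1.53 ± 0.23 (2.57e-06), *Isl1* 1.08 ± 0.17 (2.34e-06), *Epas1*, which encodes HIF2A, 0.80 ± 0.15 (0.000384), and *Uchl1*, a ubiquitin hydrolase of neurons, 0.59 ± 0.12 (0.000508). *Unc5b* had 0.42 ± 0.09 (0.00304), and the rest were *Nrk*, *Tulp4* and *Apc*, besides the negative ENSMUSG00000052429. *Hand2os1* and *Dbh* had their highest levels in single GFP+ SNS and HC pools, and the sympathetic marker sum also reached its highest values there, a part in the slopes that was not tested.

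Below the threshold the slopes leaned the way of the GFP difference. Without *Gata3*, 750 of 1049 shared higher genes (71.5%) had a positive slope, as did 231 of 969 shared lower genes (23.8%) and 47.7% of all measured genes. The median slope was 0.068, -0.038 and -0.005 in the same order. These genes come from the same libraries and are not independent, so the shares carry no test. Within GFP+ populations alone 223 genes were called positive and 33 negative, and within GFP- populations 0 and 2. With the 12 crossed pools kept under their labels there were 1291 and 1088, and under ERCC scaling 3246 were positive.

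**Figure D4:**
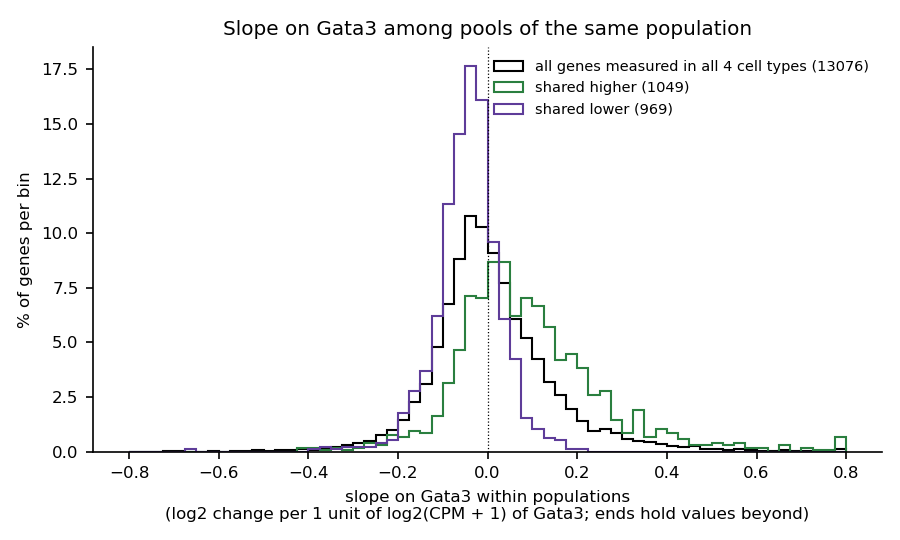
Distribution of the slope on *Gata3* within populations (log2 change per unit of log2(CPM + 1) of *Gata3*) for 1049 shared higher genes (green), 969 shared lower genes (purple) and all measured genes (black), as the percentage of genes per bin. The green outline lies to the right of the black and the purple to its left, with medians of 0.068, -0.038 and -0.005.

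The scaling behind every difference was examined with the ERCC RNAs, which were added in equal amount to each well. The log2 ratio of gene counts to ERCC counts averaged 5.95 ± 0.44 (SD, n = 19) in GFP+ ECs and 6.66 ± 0.41 (n = 20) in GFP- ECs, which is lower by 0.71 in GFP+ pools (permutation test, two-sided, adjusted p = 0.00012). In HCs the difference was -0.03 (adjusted p = 0.782 by the same permutation test). It was higher in GFP+ cells by 0.17 in MCs (permutation test, adjusted p = 0.0262) and by 0.42 in SNS cells (permutation test, adjusted p = 0.00164), at 6.80 ± 0.19 against 6.63 ± 0.20 and 7.57 ± 0.35 against 7.14 ± 0.28. With the crossed pools kept, the MC difference was 0.04 and the SNS difference 0.29 (permutation test, adjusted p = 0.781 and 0.0783). Under ERCC scaling the median of all measured genes lay at -0.64 in ECs, within 0.01 of 0 in HCs, 0.14 in MCs and 0.44 in SNS cells. The rule then gave 757 higher and 109 lower genes, of which 511 and 95 were among the 1050 and 969, and 602 of the higher and 100 of the lower genes kept the same sign in all 4 cell types. The 969 lower genes then had a median of 0.29 in SNS cells, above 0.

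**Figure D5:**
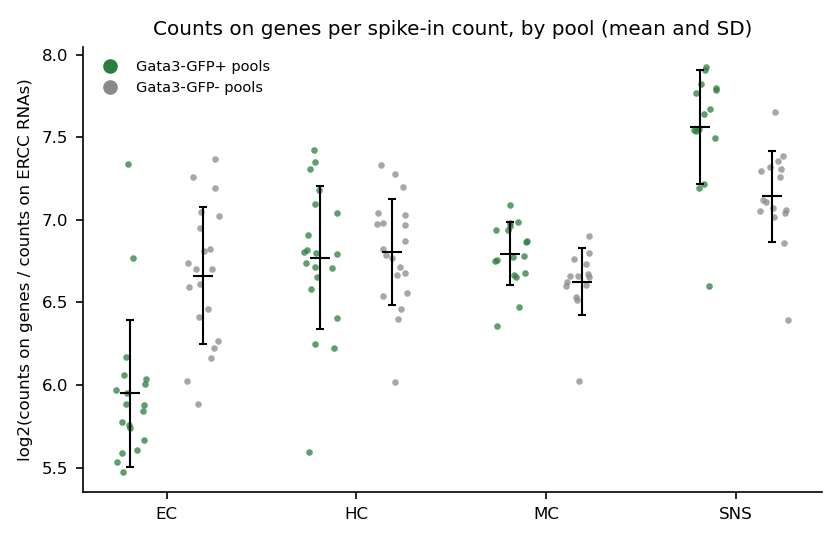
Log2 ratio of gene counts to ERCC spike-in counts in every GFP+ (green) and GFP- (grey) pool of ECs, HCs, MCs and SNS cells, with mean and SD as black bars. GFP+ pools lie lower in ECs by 0.71 and higher in SNS cells by 0.42 on average, and HCs differ by 0.03.

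Promoters were searched for letters of 2 kinds, and 3 of them are shown because they belong to the sorted gene, to the first shared higher gene and to a shared replication gene. Each is the 250 bases before the RefSeq start (GRCm38.p6), read 5′ to 3′ on the gene's strand, with matches in capitals. They are chr2:9878601-9878850 (minus strand) for *Gata3*, chr13:116309689-116309938 (minus strand) for *Isl1* and chr4:108579204-108579453 (plus strand) for *Orc1*.
Gata3: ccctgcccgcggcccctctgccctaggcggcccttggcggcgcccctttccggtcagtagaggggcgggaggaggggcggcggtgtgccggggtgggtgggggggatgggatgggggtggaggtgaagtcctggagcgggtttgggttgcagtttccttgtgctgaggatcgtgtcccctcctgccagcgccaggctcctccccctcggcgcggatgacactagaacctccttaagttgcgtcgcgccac
Isl1: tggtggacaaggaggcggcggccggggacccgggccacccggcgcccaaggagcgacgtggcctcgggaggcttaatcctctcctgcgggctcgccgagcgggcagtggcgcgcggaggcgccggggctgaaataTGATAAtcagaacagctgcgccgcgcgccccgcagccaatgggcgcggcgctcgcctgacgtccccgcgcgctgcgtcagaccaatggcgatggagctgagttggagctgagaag
Orc1: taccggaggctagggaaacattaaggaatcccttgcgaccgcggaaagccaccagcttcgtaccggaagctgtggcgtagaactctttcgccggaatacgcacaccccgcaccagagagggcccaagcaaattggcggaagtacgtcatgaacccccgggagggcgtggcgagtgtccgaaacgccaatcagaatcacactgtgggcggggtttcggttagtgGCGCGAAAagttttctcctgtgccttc
The GATA letters searched were GATAA and GATAG, each after an A or a T, and the E2F letters TTTCCCGC, TTTCGCGC, TTTGGCGC and TTTGCCGC, on both strands. The *Isl1* window held 1 GATA match, the *Orc1* window 1 E2F match on the other strand, and the *Gata3* window no match.

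The GATA letters occurred in 15.7% of 1082 promoters of the higher genes (809 of 1050 genes matched the RefSeq table) and in 18.3% of 563 promoters of the lower genes (470 of 969 matched), against 16.2% of promoters of measured genes and 26.5% of all promoters in the table. E2F letters occurred in 2.31% of promoters of the higher and 5.86% of promoters of the lower genes, against 3.49% of measured genes and 1.86% of all promoters. Median GC content was 61.2% and 59.6% for the higher and lower genes, 60.4% for measured genes and 52.4% for all promoters. A match is a description of the letters and not a bound site.

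At the threshold of the rule, the last genes inside were *B4galt5*, at a blocked log2 fold change of -0.38 ± 0.13 (SE), and *Rab8a*, at -0.14 ± 0.05, with adjusted p of 0.00988 and 0.00994 (edgeR). The first outside were *Tmem170*, at 1.06 ± 0.35, and *Gm13315*, at -0.53 ± 0.18. *Tmem170* differed by 0.77, 1.06, 1.89 and 0.74 in ECs, HCs, MCs and SNS cells, more than many genes inside. A further 789 genes had the same sign in all 4 cell types without passing the blocked fit, and 2606 measured genes passed it without a common sign.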

How the data were processed

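RNA-seq counts of 160 pools were analyzed. Libraries were made with Smart-seq2, and the authors deposited raw HTSeq read counts per gene and per ERCC spike-in RNA for all pools in a single table. The submitters' processing notes name GSNAP, HTSeq 0.5.3p3 and mm10, whereas the study's methods name STAR and Ensembl gene models. Which aligner made the counts could not be settled, and strand and overlap settings are not given in the sources used here, so overlapping, antisense and multi-copy genes are uncertain. In the pools used, a median of 16.3% of reads were ambiguous, 11.7% lay outside genes and 23.2% were not aligned, and these stayed out of library sizes.

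Pools needed over 500000 counts on genes plus ERCC RNAs, over 20% of reads on genes and under 20% on ERCC RNAs. MC pools with more *Ngfr* than *Pdgfrb* counts and SNS pools with the reverse were left out. Column names give the population and no pool number, and 0 columns stayed unmapped. No 2 pools were identical.

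A gene needed 10 or more counts in 5 or more pools and was fitted in edgeR 4.0.16 (R 4.3.3) with TMM scaling and robust quasi-likelihood tests, with Benjamini-Hochberg adjustment over all of them. The fits were GFP with cell type as block, 8 population means (GFP within each cell type and the interaction), and a slope on *Gata3*. The study compared groups within cell types by a test that takes no block, so a count model with its adjusted p limit was used. CPM are counts per TMM-scaled library size, not corrected for length, and were not compared between genes. Gene-to-ERCC ratios were tested by two-sided permutation (100000 resamples) with adjustment over 4. Reads of amplified cDNA do not count molecules, and the spread between pools was used throughout. The fits were tested on simulated data.

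The members and gene lists were chosen with earlier results of these data known. Named genes were *Gata3*, the first 12 higher and lower members by the smallest difference over cell types, list members (all where a list has at most 6, otherwise the first 4), *Cdkn1c*, *H19*, *Igf2* and *Dlk1*, and 2 genes on either side of the threshold. Those called in every cell type, by slope or by interaction, and the further list members were named after their values were seen. Results for some genes are not reported here. Alternatives were DESeq2 1.42.0 (size factors and Wald test), ERCC scaling, filters, pools, thresholds, leaving out a cell type, separate fits and a sympathetic covariate. Positions of genes are from GENCODE (GRCm38) and promoters from RefSeq. Python 3.11.15 was used for tables and figures.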

Additional observations from a re-analysis of the deposited data

Results flagged for a closer look

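In 847 shared genes the GFP difference depended on cell type by the interaction test. It did so in 53 named genes, 2 of them outside the shared set. The span from the smallest to the largest of the 4 log2 fold changes is given in parentheses for each.

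Among higher genes the span was under 2 for *Ldb1* (0.689), *Apc* (0.771), *Tulp4* (0.923), *Tanc2* (1.09), *Hk1* (1.18), *Rara* (1.21), *Ccng2* (1.48), *Bambi* (1.71) and *Id3* (1.71). It lay between 2 and 3.3 for *Zfpm1* (2.02), *Cdkn2d* (2.14), *Hey1* (2.43), *Unc5b* (2.59), *Parm1* (2.74), *Hoxb6* (2.8), *Hoxc6* (2.96), *Meg3* (3.11), *Hoxb8* (3.11), *Smad6* (3.2) and *Isl1* (3.22). It was larger still for *Dlk1* (3.3), *Stmn2* (3.62), *Cdkn1c* (3.64), *Dbh* (3.79), *Nrk* (3.83), *Uchl1* (3.93), *Hoxb7* (4.71), *Magel2* (5.33), *Hoxb9* (5.56), *Fbln2* (6.02) and *Hand2os1* (6.17).

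Among lower genes the span was under 1 for *Rpl35* (0.396), *Rps29* (0.446), *Rplp2* (0.534), *Aldoa* (0.606), *Atp5g3* (0.667), *Rpl12* (0.74), *Smc2* (0.776), *Smc4* (0.87) and *Mybbp1a* (0.891), and 1 or above for *Gins2* (1.03), *Pfkl* (1.04), *Nop58* (1.04), *Lig1* (1.05), *Ncl* (1.1), *Birc5* (1.12), *Eno1* (1.17), *Dkc1* (1.22), *Nhp2* (1.38), *Kctd12* (2.29) and *Bmp2* (3.1). Of the named genes outside the shared set, *H19* (3.06) and *Igf2* (3.89) were higher in GFP+ ECs and HCs and lower in GFP+ SNS cells.

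The 12 left-out pools had *Gata3* in every group. The median was 36.8 CPM in the 3 pools labelled *Gata3*-GFP+ MCs, 369 CPM in those labelled *Gata3*-GFP- MCs, 13.1 CPM in those labelled *Gata3*-GFP+ SNS and 46.8 CPM in those labelled *Gata3*-GFP- SNS. The order of GFP+ and GFP- labels is thus the reverse of that in the pools used, in both cell types, and *Isl1* was at 180 to 883 CPM in the pools labelled *Gata3*-GFP- MCs.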

How the results depend on the processing

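No paired analysis was possible because the columns carry no pool number. The shared genes numbered 294 higher and 23 lower at a log2 fold change beyond 1, 2105 and 1598 without SNS pools, 300 and 286 with the sympathetic covariate, 109 lower under ERCC scaling, and 649 higher in all pools or 654 with crossed pools kept. Leaving out ECs, HCs or MCs gave 985 to 1294 higher and 687 to 1366 lower. The blocked fit called 3537 higher and 2510 lower genes, 1667 and 276 beyond 1, 2266 and 1298 without EC pools, and 846 and 592 with the covariate.

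Within cell types, ERCC scaling changed the calls from 3506 higher and 3146 lower to 1265 and 7119 in ECs, and from 425 and 733 to 1957 and 397 in SNS cells. Lower calls went from 1648 to 1037 in HCs and from 682 to 202 in MCs. The share of calls that were higher moved from 52.7% to 15.1% in ECs, 51.0% to 73.9% in MCs and 36.7% to 83.1% in SNS cells. With crossed pools kept SNS calls were 273 and 405, and a separate fit gave 773 higher. At an adjusted p under 0.05 there were 2543 lower in HCs, 1354 and 1182 in MCs, and 777 and 1239 in SNS cells. Beyond a log2 fold change of 1 there were 2192 and 1119 in ECs, 385 lower in HCs, and 438 and 276 in MCs.

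Positive and negative slope calls were 305 and 155 with no filter, 63 and 11 with 20 pools required, 1228 and 1031 in all pools, 1291 and 1088 with crossed pools, 256 and 91 at 0.05, 223 and 33 in GFP+ and 0 and 2 in GFP- populations, and ERCC scaling gave 3246 positive. The ERCC ratio in MCs was 0.037 in all pools and 0.042 with crossed pools, and that in SNS cells 0.292, past no threshold. The cause of these shifts was not tested, beyond the pools and thresholds that define them. Of the values of named genes under alternatives, 1191 kept direction and side of the threshold, 103 lost the call, 36 of them with the covariate, and 6 gained it.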

Other observations

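Among GFP+ pools 32.9% of the 1050 higher genes had their highest population mean in ECs, against 24.9% of all measured genes, and 34.0% against 22.3% in MCs. Among GFP- pools the EC share was 16%, close to the 18.6% of all measured genes. Of the lower genes 68.7% had their highest mean in HCs among GFP+ pools, against 25.8% of all measured genes. The genes were chosen by GFP contrasts of these same levels, so the shares are not independent of the rule. *Epas1* had medians of 445 against 90.2 CPM in ECs but 3.53 against 1.40 CPM in HCs, 21.6 against 8.18 CPM in MCs and 12.4 against 1.66 CPM in SNS cells, with log2 fold changes of 2.24, 2.14, 1.19 and 2.77. *Crip1*, a small LIM protein, had 197 against 111 CPM in ECs, 99.2 against 84.1 CPM in HCs, 81.03 against 22.0 CPM in MCs and 41.7 against 21.3 CPM in SNS cells.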
